A study of Glycine max with 4 samples.

Results

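The drought response of leaves of Pana, a soybean (Glycine max) line labelled drought susceptible, was described from 6 RNA-seq libraries: 3 from plants stressed for 15 days (Pana drought) and 3 from plants under the control condition (Pana control). Members were the gene models with at least 1 FPKM (fragments scaled by gene-model length and by the mapped fragments of each library) in 3 or more of these 6 libraries, which left 29041 of 54175 gene models, or 53.6%. A further 5182 gene models were listed at 0 in all 6 libraries, and 21055 reached 1 FPKM in every one of them. The other 6 libraries of the series, 3 of PI 567690 drought and 3 of PI 567690 control, come from a line labelled drought tolerant and served for comparison. All plants grew in large pots of soil and sand, stress began at the V5 vegetative stage, and leaves were taken at the R2 flowering stage. The series contrasts the lines for canopy wilting, and the Pana comparison asks which leaf transcripts differ between stressed and control plants of the line labelled susceptible. The design text calls the 3 libraries of a group biological replicates, but no label ties a library to particular plants, so p-values reflect only how far these libraries spread.

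Leaves of a drying plant close their stomata under the hormone abscisic acid, take in less carbon dioxide, and commonly lower the transcripts of photosynthesis while raising those of protective proteins and of enzymes that make compatible solutes. Lines that wilt slowly are studied because they may keep leaf water for longer in drying soil. The gene models are given by the identifiers of the table, because the table does not pair them with names and 0 of its 54175 identifiers matched the RefSeq name table. Roles of single gene models and the leaf origin of the RNA could therefore not be checked against markers. In whole leaves, fewer cells of a type and less RNA per cell cannot be told apart.

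The 6 libraries did not form 2 clean groups. Across the 29041 gene models on the log2(FPKM + 1) scale, Pana drought library 1 was most like PI 567690 drought library 1 (r = 0.913), and Pana drought library 2 was also most like that library (r = 0.935). Pana drought library 3 was most like PI 567690 control library 1 (r = 0.939), ahead of Pana control library 2 (r = 0.913) and of its group mates Pana drought library 2 (r = 0.858) and library 1 (r = 0.694). Among controls, Pana control libraries 2 and 3 were close (r = 0.959), while library 1 reached no more than 0.845 with any library. These coefficients run across gene models, which share each library and its depth, and they describe the libraries only.

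**Figure D1:**
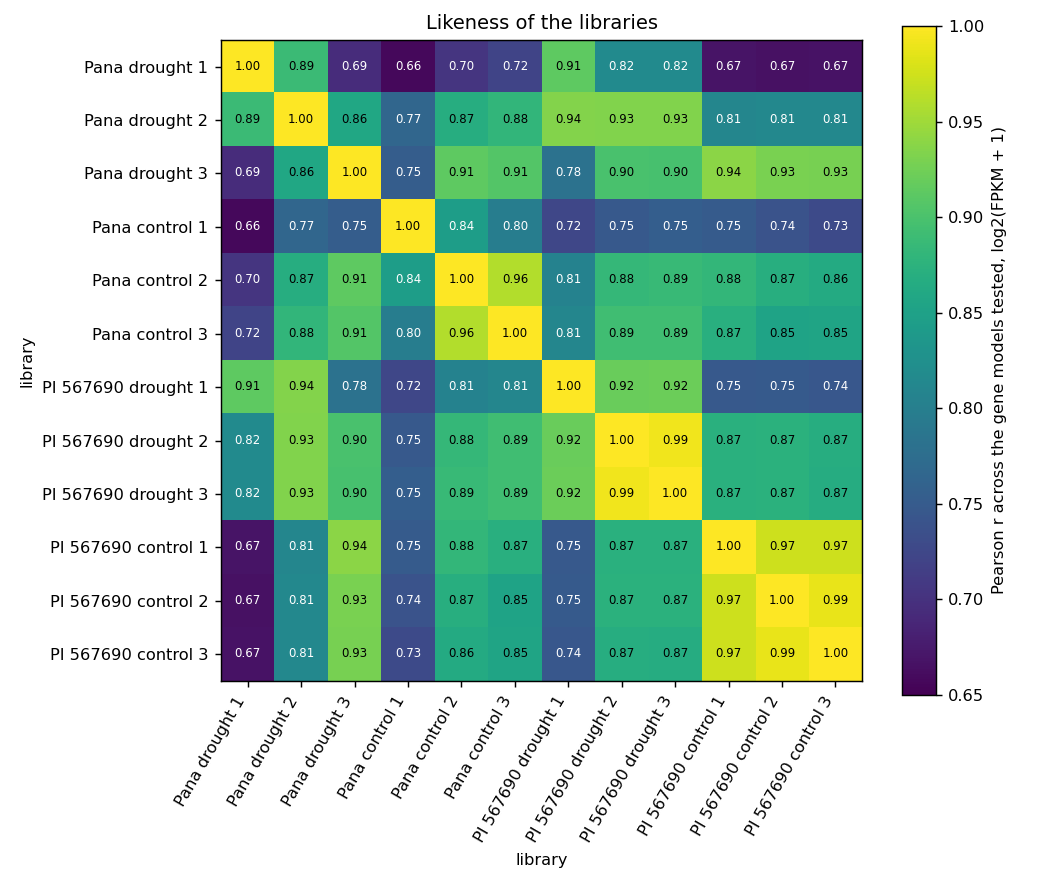
Pearson correlation between all 12 libraries across 29041 gene models on the log2(FPKM + 1) scale, with the coefficient written in each cell. Pana drought library 3 is brighter against the 3 PI 567690 controls than against Pana drought libraries 1 and 2, and Pana control library 1 is dark against every library.

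Depth differed as well. The steps between low FPKM values put the sequencing depth of Pana drought libraries 1, 2 and 3 at 87.5%, 77.7% and 100% of that of drought library 3, and the depth of Pana control libraries 1, 2 and 3 at 50.5%, 65.5% and 84.2%. Reads behind low values were taken from gene models with a mean of 1 to 2 FPKM over all 12 libraries of the series. Whole reads could be recovered for 1930 of these 4491 gene models. The median was 23, 26.5 and 31 reads in the 3 Pana drought libraries and 6, 12 and 19 in the 3 Pana control libraries. These medians follow the level of the gene models in each library as well as its depth. Pana drought libraries listed 10357, 10057 and 9896 gene models at 0, against 15657, 12093 and 10970 in Pana controls (exact permutation test on 3 and 3 libraries, 2-sided p = 0.1, the smallest that 3 against 3 allows). The values of low gene models are thus least precise in Pana control library 1. PI 567690 control library 1 and drought library 1, at depths of 50.3% and 48.3%, listed 10978 and 11547 gene models at 0. Their medians were 19 and 16 reads. A depth close to that of Pana control library 1 thus came with more reads and fewer gene models at 0 in PI 567690. What part of the differences at low levels goes with depth was not tested.

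The line named in each column was read from gene models that part the lines. With the library in question left out, a gene model served as a line marker when its log2(FPKM + 0.25) separated all other Pana libraries from all other PI 567690 libraries by at least 2-fold, and the left-out library was placed on a scale from 0, the mean of the other line, to 1, the mean of its own. Pana drought library 1 stood at the level of PI 567690 (a position below 0.25) in 35.8% of 134 markers (95% Wilson interval 28.2 to 44.2%, which covers counting error only and treats gene models as independent) and at the level of Pana (above 0.75) in 44.8%. Pana drought library 3 stood at the level of PI 567690 in 23.3% of 103 markers (16.2 to 32.3%) and at that of Pana in 56.3%. Pana drought library 2 stood at the level of PI 567690 in 0 of 75 markers and at that of Pana in 81.3%. Pana control libraries 1, 2 and 3 stood at the level of PI 567690 in 4.88% of 82, 0% of 73 and 0% of 75 markers. Among the PI 567690 libraries the share at the level of the other line was highest in drought library 1, at 12.1% of 99 markers. In these markers, drought libraries 1 and 3 of Pana thus went against their line label in part, with the rest on the Pana side or between the lines. A gene model at which 2 Pana drought libraries both stood at the level of PI 567690 could not be a marker for any library. These shares therefore leave out levels that drought libraries have in common and do not set library 2 apart by themselves. What set the levels was not tested. The counts and shares over the Pana groups below are given with and without Pana drought libraries 1 and 3, or library by library. These choices were made in part after the data were seen.

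**Figure D2:**
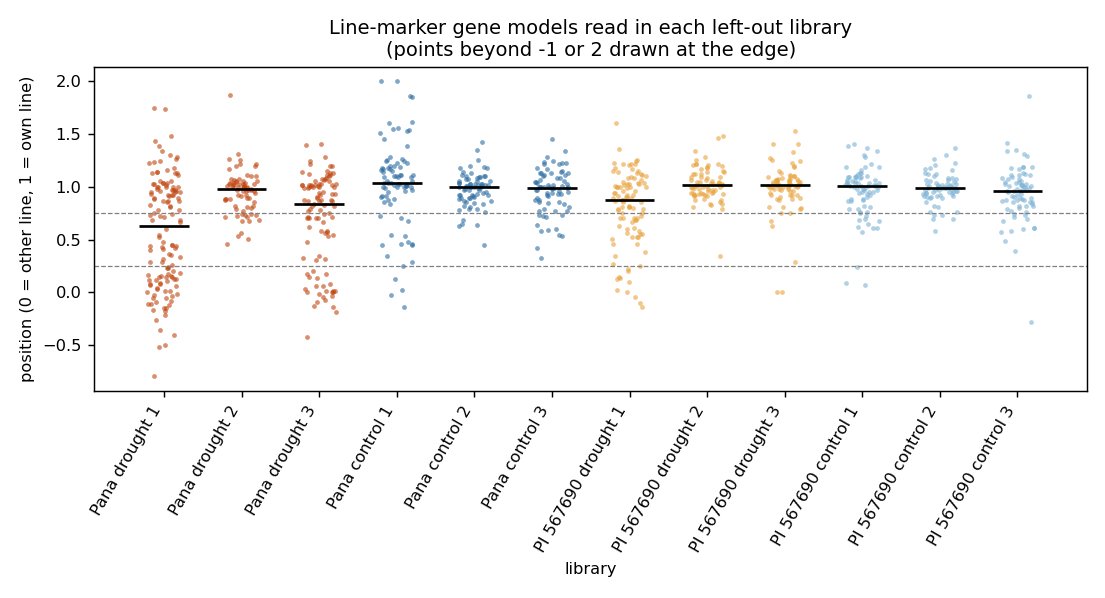
Position of each left-out library on the scale between the lines, where 0 is the mean of the other line and 1 that of its own. Each point is a line-marker gene model, black lines are medians and dashed lines mark 0.25 and 0.75. Pana drought libraries 1 and 3 spread down to 0, with 35.8% and 23.3% of points below 0.25, while no point of Pana drought library 2 lies there.

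Markers were also chosen without any drought library of Pana. Gene models that parted a pair of Pana controls from all 6 PI 567690 libraries numbered 952 to 1547, depending on the pair. In these, Pana drought library 1 stood at the level of PI 567690 in 60.7 to 67.2%, drought library 2 in 40.8 to 58.5% and drought library 3 in 43.9 to 52.6%, while the control left out of the choice did so in 3.57 to 19.3%. All 3 drought libraries therefore stood at the level of the other line more often than a left-out control did, including library 2. A drought response towards the level of PI 567690 and RNA of that line cannot be told apart by these shares.

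Few gene models passed a test of drought against control in Pana with weights for the spread of each group. These weights scale whole groups. The spread of a single gene model was taken from all 12 libraries, so the Pana p-values rest in part on spread within PI 567690. With limma on log2(FPKM + 1), each group weighted by its own spread, 16 of 29041 gene models changed at an adjusted p under 0.05, or 0.0551% of those tested. Of these 10 rose under drought (0.0344%) and 6 fell (0.0207%), in each case with no overlap between the drought and the control libraries. The log2 fold changes of the rising gene models ran from 2.13 to 4.26 and those of the falling ones from -4.39 to -2.35, against a median of 0.32 over all gene models tested. At an unadjusted limma p under 0.05 there were 4233, or 14.6%. Scaling every library to an equal median ratio put the median over all gene models at -0.01 in place of 0.32. The count was again 16, now with 6 higher and 10 lower, and 12 of the original 16 kept their call. The libraries of Pana spread more widely than those of PI 567690: the median SD of a gene model over the libraries of a group was 0.426 in Pana drought and 0.456 in Pana control, against 0.21 in PI 567690 drought and 0.135 in PI 567690 control (log2 scale, n = 3 each). Taking 1 equal spread for all 12 libraries gave 857 calls (2.95% of those tested), 602 higher and 255 lower.

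The count turned on single libraries. Without Pana drought library 3 it was 625 (494 higher and 131 lower), with all 16 among them, and without Pana control library 1 it was 54, again with all 16. It was 3 without Pana drought library 1, with 2 of the 16 among them. Without Pana drought library 2 it was 13 (4 higher and 9 lower), with only 5 of the 16 among them. It was 0 without Pana control library 2 and 0 without Pana control library 3, where limma gave 1325 and 4958 gene models at an unadjusted p under 0.05. Leaving out both Pana control library 1 and Pana drought library 3 gave 1846 calls, 1336 higher and 510 lower. With only library 2 left in the drought group, taken to vary like the controls, there was 1 call. Fitting the 6 Pana libraries alone gave 2 calls, neither among the 16, with 3562 at an unadjusted p under 0.05. These settings without 2 libraries were chosen after the data were seen.

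**Figure D3:**
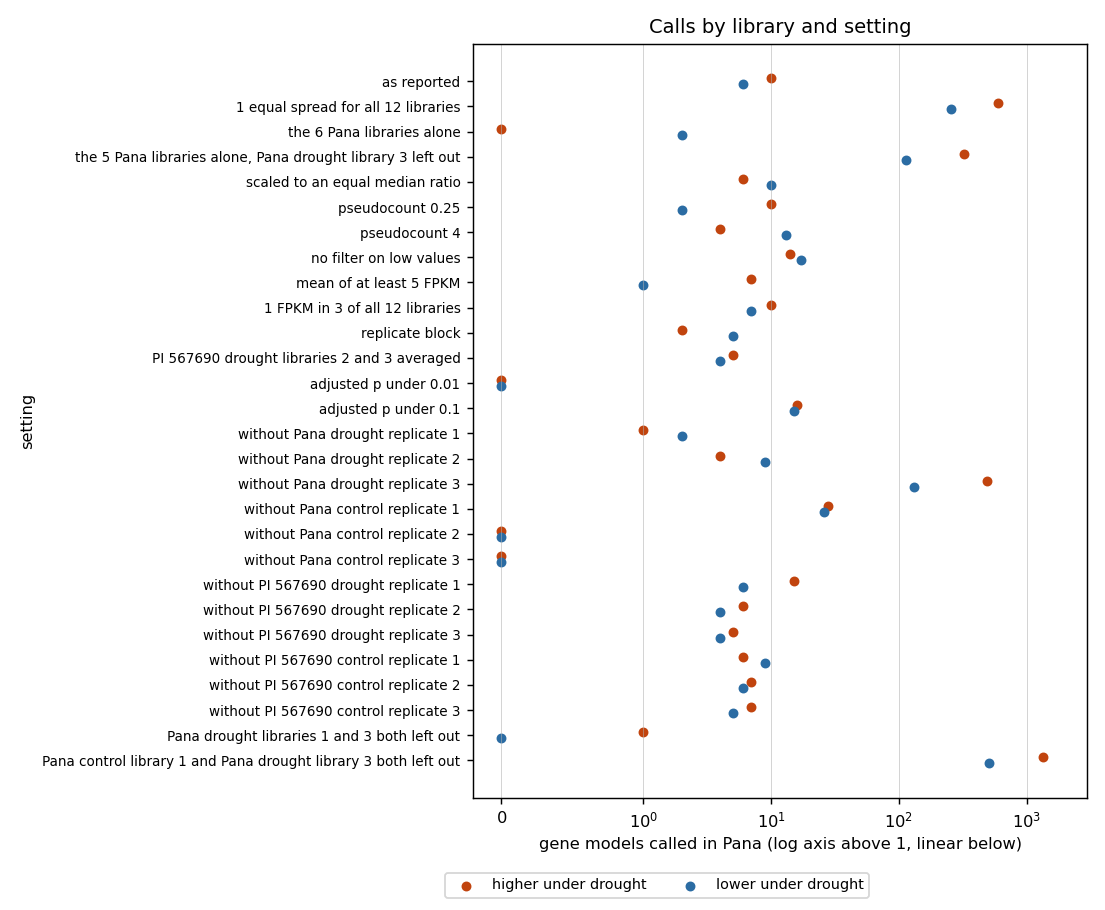
Number of gene models called higher (red) and lower (blue) under drought in Pana under each setting, on an axis that is logarithmic above 1. The settings without Pana drought library 3 reached 439 to 1846 calls in all, except the one that also left out drought library 1, which had 1, and those without Pana control library 2 or 3 have 0.

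The largest rise among the called gene models above the median level was that of Glyma04g05500, an identifier on chromosome 4. It had 24.96, 64.1 and 47.3 FPKM in Pana drought libraries 1, 2 and 3, against 0.254, 2.06 and 2.04 FPKM in Pana control libraries 1, 2 and 3. All drought libraries, library 3 included, stood far above all controls (log2 fold change 4.26 ± 0.55 SE, limma adjusted p = 0.0288). In PI 567690 it had 83.1, 45.7 and 43.8 FPKM under drought, against 6.66, 7.01 and 6.21 FPKM in controls (log2 fold change 2.88, limma adjusted p = 7.88e-06), while the responses of the 2 lines did not differ by the test (Pana minus PI 567690 1.38 ± 0.6 SE on the log2 scale, limma adjusted p = 0.288; 1.17% of all tested passed). Its Pana call was lost when Pana drought library 2 (limma adjusted p = 0.139) or Pana control library 2 or 3 (0.824 and 0.189) was left out.

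Glyma14g36860, on chromosome 14, was close to 0 in Pana controls only. Under drought the 3 Pana libraries held 12.5, 33.8 and 8.07 FPKM, against 0.183, 0.169 and 0.0658 FPKM in Pana controls. The groups stood well apart (log2 fold change 3.83 ± 0.52 SE, limma adjusted p = 0.0314). In PI 567690 it stood at 11.1, 8.34 and 7.38 FPKM under drought, against 6.64, 5.43 and 7.53 FPKM in controls, groups that overlap (log2 fold change 0.39, adjusted p = 0.139). The level of both PI 567690 groups lies near that of Pana drought library 3. The call did not hold without Pana drought library 1 or 2 (limma adjusted p = 0.0845 and 0.0898), Pana control library 2 or 3 (0.824 and 0.21) or PI 567690 control library 1 (0.0522).

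The largest fall was that of Glyma02g03230, on chromosome 2. Droughted Pana had 0, 0.723 and 0.0775 FPKM in libraries 1, 2 and 3, against 14.2, 35.9 and 29.2 FPKM in control Pana. Every drought library was under 1 FPKM and every control above 14 FPKM (log2 fold change -4.39 ± 0.5 SE, limma adjusted p = 0.0158). In PI 567690 it also fell, to 0.281, 0.0574 and 0.0495 FPKM under drought, against 1.23, 2.43 and 1.90 FPKM in controls (log2 fold change -1.32, limma adjusted p = 0.000389). Leaving out Pana drought library 1 (limma adjusted p = 0.0597) or Pana control library 2 or 3 (0.824 and 0.17) ended the Pana call.

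Glyma11g12410, on chromosome 11, had 1.38, 4.86 and 2.42 FPKM in droughted Pana, against 155.3, 26.0 and 46.3 FPKM in control Pana (log2 fold change -4.01 ± 0.59 SE, limma adjusted p = 0.0457). The groups do not overlap, but the controls differ widely among themselves. PI 567690 held 5.15, 3.74 and 3.40 FPKM under drought, against 2.96, 2.42 and 3.35 FPKM in controls (log2 fold change 0.37, adjusted p = 0.207). Its call is the least stable of the 4: it was kept in 9 of 27 other settings, over a range of limma adjusted p from 0.00548 to 0.76. Among settings that leave out 1 library it was lost without Pana drought library 1 or 2, without Pana control library 2 or 3, without any PI 567690 control library and without PI 567690 drought library 2 or 3.

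**Figure D4:**
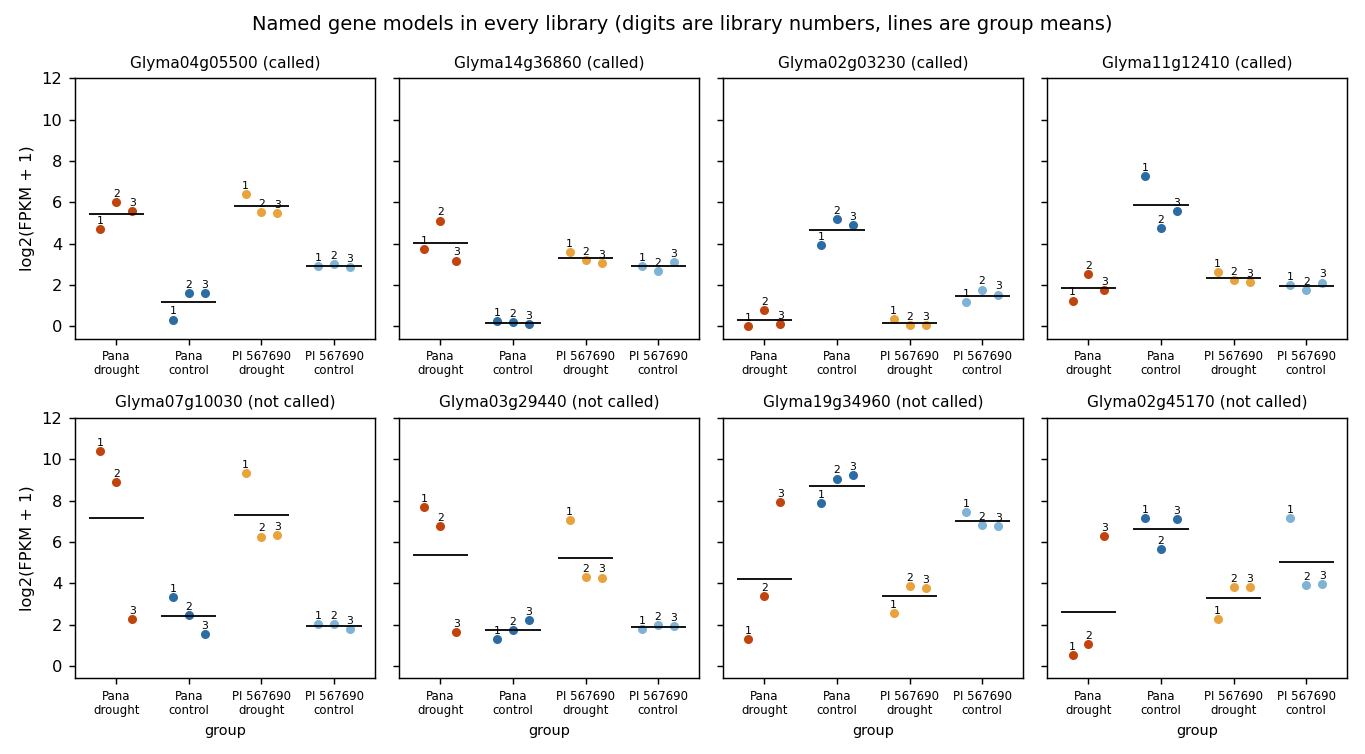
Level of 8 gene models in every library on the log2(FPKM + 1) scale, with the library number beside each point and the group mean as a line. The upper row shows the 4 named among the called gene models, chosen to have no overlap between the Pana drought and control libraries. The lower row shows 4 that were not called, chosen with Pana drought library 3 within the range of the Pana controls.

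In all 16 called gene models, the levels of PI 567690 lay on the side of droughted Pana. For the 10 that rose, the group means ran from 4.74 to 45.4 FPKM in Pana drought (median 22.8) and from 0.139 to 3.85 FPKM in Pana control (median 1.28), beside 4.76 to 57.5 FPKM in PI 567690 drought (median 17.7) and 3.93 to 44.2 FPKM in PI 567690 control (median 13.0). For the 6 that fell, they ran from 0.149 to 6.21 FPKM in Pana drought (median 0.795) and from 4.80 to 75.9 FPKM in Pana control (median 23.7), beside up to 19.0 FPKM in PI 567690 drought (median 0.359) and up to 15.5 FPKM in PI 567690 control (median 1.18). All 6 PI 567690 libraries stood above the Pana controls in 10 of the 10 rising gene models, against 13.3% of all tested, and below them in 6 of the 6 falling ones, against 3.56%. Among all gene models with no overlap between Pana drought and control, a trait of each call, the shares were 52.6% of the 4343 higher and 45.6% of the 1232 lower. Well-watered PI 567690 was nearer to droughted than to control Pana in 14 of the 16, against 51.9% of all tested. For these same 16, called with all libraries and not called anew, the count was again 14 without Pana drought library 1, without library 3 and without both. The shares of all tested were then 61.7%, 41.4% and 45.8%. These positions use the same Pana libraries as the calls, and gene models in which the Pana controls are extreme are favoured by both, so the shares are given as a description.

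The drought contrast within PI 567690 takes no level from a Pana library. In that line, 7 of the 16 changed in the same direction as in Pana and 3 in the opposite one (limma, adjusted p under 0.05). Over all gene models tested, 48.4% changed in PI 567690, 33.8% higher and 14.7% lower, in the same fit with its narrower spread. The 2 responses differed by the test in 12 of the 16, against 1.17% of all tested, but that test shares the Pana libraries with the calls. For the 6 that fell in Pana, the median level in PI 567690 controls was 1.18 FPKM, which leaves little room for a fall on the log2(FPKM + 1) scale. Signs matched in 9 of the 16. The median log2 fold change in PI 567690 was 0.51 for the 10 that rose in Pana and 0.14 for the 6 that fell, beside 0.24 for all tested.

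Many more gene models separated the groups without passing the test. The 3 drought values lay above all 3 control values in 4343 gene models (15% of those tested) and below them in 1232 (4.24%). For 3 and 3 exchangeable libraries, a lack of overlap in either direction has a probability of 0.1, split evenly between higher and lower. Gene models share their libraries, so the counts carry no test and are not a count of drought responses. Scaling to an equal median ratio turned this balance: 2443 were higher and 2762 lower, so the share of higher ones was 46.9% in place of 77.9%. Without Pana drought library 3 the count in either direction was 14408 of the 29041 tested. It was 11724 without Pana control library 3, against 5575 (19.2%) with all 6 libraries. Fewer libraries in a group make a lack of overlap easier to reach. Counts and shares without a library, here and below, therefore do not compare directly with those of all 6. In 414 gene models every drought library and no control reached 1 FPKM, and in 99 every control and no drought library did. There were 7 with all drought libraries at 1 FPKM or more and all 3 controls listed at 0, and 0 of the reverse kind. Without drought library 1 the 414 and 99 became 596 and 119, without drought library 3 they became 1263 and 349, and without both 1788 and 417.

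The balance of higher and lower gene models followed abundance. Among the 4097 gene models with a mean under 2 FPKM over the 6 libraries, 18.6% stood higher under drought with no overlap and 3.88% lower. At 20 to 100 FPKM the shares were 8.49% and 7.45% of 4630. At 100 FPKM or more they were 5.69% and 11.6% of 932, and the median log2 fold change was -0.41, beside 0.43 at 2 to 5 FPKM. With libraries left out a lack of overlap is easier to reach, so the shares rise for that reason too. The shares at under 2 FPKM were 25.5% higher and 4.69% lower without drought library 1, 36% and 9.28% without drought library 3, and 49.8% and 11% without both. At 100 FPKM or more they were 7.83% and 12%, 13.6% and 30.5%, and 19.6% and 31.4% in the same order, so lower gene models outnumbered higher ones there in each of these choices. For these most abundant gene models the median log2 ratio to the control mean was -0.8 in drought library 1, -0.19 in library 2 and -0.14 in library 3. FPKM is relative, so a smaller share for abundant gene models can raise the values of others. The lower depth of the Pana controls moves with the same pattern, and the part of either was not tested.

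Abundant gene models were also chosen without the Pana libraries. The 100 gene models with the highest mean in PI 567690 controls held 8.04%, 15.3% and 30.4% of all FPKM in Pana drought libraries 1, 2 and 3, against 31.6%, 33.7% and 24.1% in Pana control libraries 1, 2 and 3. Drought libraries 1 and 2 lay below every control, and library 3 lay inside the control range. The means were 17.9 ± 11.4% under drought and 29.8 ± 5.05% in controls (SD, n = 3 each), with overlapping groups (exact permutation test, 2-sided p = 0.2, and 0.2 adjusted over the 3 library measures tested). With 3 against 3 libraries this test cannot go below 0.1, so it could not have passed. In PI 567690, where the gene models were chosen on the controls, the shares were 9.72%, 17.7% and 17.6% under drought and 32.6%, 33.1% and 34.1% in controls.

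Taken singly, the drought libraries departed from the controls to different extents. Drought library 1 stood at least 2-fold above the highest control in 3365 gene models (11.6%) and at least 2-fold below the lowest in 1805 (6.22%). The counts were 1479 and 531 in drought library 2, and 780 and 478 in drought library 3. Drought library 3 lay within the control range in 50.9% of gene models, against 30.3% in library 1 and 39.2% in library 2. Controls also departed from each other. Against Pana control libraries 2 and 3, the numbers at least 2-fold above and below were 4404 and 2951 in drought library 1, 1986 and 949 in drought library 2 and 1000 and 768 in drought library 3, but 2322 and 4551 in Pana control library 1. Drought libraries 2 and 3 thus both departed from that pair of controls in fewer gene models than Pana control library 1 did.

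Gene models that moved in a pair of drought libraries were then read in the remaining one. All of these readings use the same controls as the choice, so they describe the libraries and carry no test. Drought libraries 1 and 2 both stood at least 2-fold above the controls in 1123 gene models. Drought library 3 was above the controls in 58.7% of these, at least 2-fold so in 14.4%, within the control range in 32.9% and below all controls in 8.37%. The median log2 ratio of these gene models to the control mean was 2.44, 1.93 and 0.5 in drought libraries 1, 2 and 3. In the 462 gene models at least 2-fold below the controls in drought libraries 1 and 2, library 3 was below the controls in 58% and within their range in 26.8%, with medians of -2.72, -1.92 and -0.61. Choices that included library 3 were smaller. Of the 237 higher in libraries 1 and 3, library 2 was also above the controls in 94.5%, and of the 231 higher in libraries 2 and 3, library 1 was so in 90%. These high shares concern gene models already shared by library 3 and another drought library. Of all 780 at least 2-fold above the controls in drought library 3, 39.2% were so in drought library 1 or 2, and of the 478 below, 43.1% were. The same shares were 80.6% and 88.5% for drought library 2 and 35.6% and 31.2% for drought library 1.

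**Figure D5:**
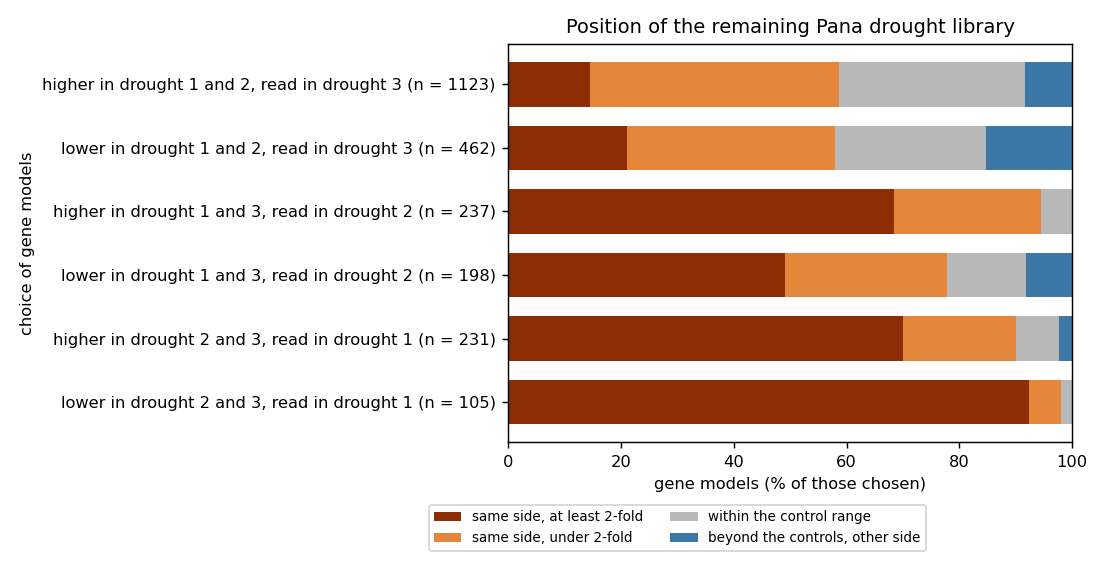
Position of the remaining Pana drought library in gene models at which the other drought libraries both stand at least 2-fold beyond the 3 Pana controls, in percent of the gene models chosen (n beside each bar). When library 3 is the one read, 32.9% and 26.8% of gene models lie within the control range, against 14.1% or less when library 1 or 2 is read.

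The size of the departures that library 3 lacked is seen in single gene models. The choice required drought libraries 1 and 2 at least 2-fold beyond the controls and library 3 within the control range. The position of library 3 is thus fixed by the choice. Named were those with the largest mean difference of drought libraries 1 and 2 to the controls. Glyma07g10030, on chromosome 7, had 1344, 473.9 and 3.76 FPKM in Pana drought libraries 1, 2 and 3, against 9.06, 4.45 and 1.90 FPKM in the Pana controls. The value of drought library 3 lies far below those of drought libraries 1 and 2, inside the control range by choice. In PI 567690 it had 639.6, 75.7 and 79.2 FPKM under drought, against 3.03, 3.03 and 2.42 FPKM in controls. Glyma03g29440, on chromosome 3, had 203.2, 109.3 and 2.10 FPKM in droughted Pana, against 1.48, 2.29 and 3.70 FPKM in control Pana. Its PI 567690 values were 132.9, 18.5 and 18.4 FPKM under drought and 2.40, 2.98 and 2.83 FPKM in controls. In both gene models the first drought library of each line was the highest.

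Downwards, Glyma19g34960, on chromosome 19, had 1.49, 9.52 and 241 FPKM in Pana drought libraries 1, 2 and 3, against 233, 535.1 and 607.1 FPKM in the Pana controls. It had 4.91, 13.7 and 12.8 FPKM in PI 567690 under drought, against 172.5, 112 and 107.4 FPKM in controls. Glyma02g45170, on chromosome 2, had 0.432, 1.10 and 77.0 FPKM in droughted Pana, against 143.6, 49.3 and 137.4 FPKM in control Pana. Its PI 567690 levels were 3.79, 13.0 and 13.3 FPKM under drought and 142.4, 14.3 and 14.7 FPKM in controls, where the first control library stands alone. In both, drought libraries 1 and 2 stood under 10 FPKM, while library 3 lay among the controls by choice.

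Gene models of this kind also responded in PI 567690, whose libraries had no part in the choice. Of the 370 higher in Pana drought libraries 1 and 2 and within the control range in library 3, 81.1% rose in PI 567690 (limma, adjusted p under 0.05) and 0% fell, with a median log2 fold change of 1.36. Of the 659 in which library 3 was above the controls as well, 69.8% rose and 7.13% fell, with a median of 1.01. Among the gene models that were lower, 70.2% of the 124 with library 3 in the control range fell in PI 567690 (median -1.47) and 50.7% of the 268 with library 3 below the controls did (median -0.66). Over all tested gene models 33.8% rose and 14.7% fell in PI 567690. By the median, PI 567690 drought library 1 departed most from its controls in each of these classes. For the 370, the median log2 ratios to the PI 567690 control mean were 2.08, 1.03 and 1.03 in PI 567690 drought libraries 1, 2 and 3. The difference between the classes of gene models was not tested.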

How the data were processed

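Leaf RNA-seq of 4 groups with 3 libraries each was used. The submitters' processing notes list TopHat 1.4.1, Cufflinks, Cuffdiff and FastQC without their roles. The series' design text gives TopHat before Cufflinks, and BWA before ANOVA, as separate methods. Build and annotation were not given in the sources used here. Values deposited by the authors were treated as FPKM. No header states that unit, which rests on fractional values, on Pana column totals of 674026 to 917256 and on low values in steps that depend on the gene model. Reads shared by near-identical gene copies, common in soybean, make the values of such copies uncertain.

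Gene models with at least 1 FPKM in 3 of the 6 Pana libraries were tested on log2(FPKM + 1), which understates the change of low gene models, with limma 3.58.1 in R 4.3.3. The fit covered all 12 libraries with 1 coefficient per group, weights by group (arrayWeights), trend and Benjamini-Hochberg adjustment (residual degrees of freedom 8, prior 3.72). It was run on simulated data with independent normal noise, 1 spread factor per group and equal changes in all Pana drought libraries. That check does not cover a library that departs from its group. The steps of low values gave relative depth, and whole reads within a tolerance of 0.06 the reads behind low values. Named were, of the called gene models above the median level of 6.5 FPKM with no overlap, the 2 largest rises and 2 largest falls. Also named were 2 on each side above the same level for the pattern of drought libraries 1 and 2. These were at least 2-fold beyond the controls in both libraries. Drought library 3 was required within the control range. The 31 gene lists could not be applied, since no identifier matched. Members, lists and tests were chosen with earlier results of these data known. Python 3.11.15, numpy 2.4.6, pandas 2.3.3, scipy 1.17.1 and matplotlib 3.10.9 were used.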

Additional observations from a re-analysis of the deposited data

Results flagged for a closer look

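Of the 4 called gene models named above, 3 differed in their drought response between the lines by the test of the difference itself (limma, Pana minus PI 567690, adjusted over all gene models tested, of which 1.17% passed). Glyma14g36860 had a log2 difference of 3.44 ± 0.56 SE (adjusted p = 0.0204), from a log2 fold change of 3.83 in Pana and 0.39 in PI 567690. Glyma02g03230 had a difference of -3.06 ± 0.54 SE (adjusted p = 0.0259), from -4.39 in Pana and -1.32 in PI 567690. Its PI 567690 controls stood at only 1.23 to 2.43 FPKM, so the log2(FPKM + 1) scale left little room for a larger fall there. This difference therefore does not show a weaker response in PI 567690. Glyma11g12410 had a difference of -4.39 ± 0.63 SE (adjusted p = 0.0121), from -4.01 in Pana and 0.37 in PI 567690. The choice of the named gene models already required all 3 Pana drought libraries on the same side of the 3 Pana controls. These tests share the Pana libraries with the calls.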

How the results depend on the processing

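The count of 16 calls in Pana became 857 with 1 equal spread for all libraries, 2 with the 6 Pana libraries alone and 439 with the 5 Pana libraries other than drought library 3. It was 31 with no filter on low values (14 higher, 17 lower), 8 at a mean of at least 5 FPKM, 9 with PI 567690 drought libraries 2 and 3 averaged, 0 at an adjusted p under 0.01 (4233 at an unadjusted p under 0.05) and 31 at 0.1. Leaving out 1 library gave 0 to 625, leaving out Pana drought libraries 1 and 3 gave 1, and leaving out Pana control library 1 with Pana drought library 3 gave 1846. Pseudocounts of 0.25 and 4 gave 12 calls (10 higher, 2 lower) and 17 calls (4 higher, 13 lower), and a filter over all 12 libraries gave 17. With the replicate number as a block the count was 7, 4 of them among the 16. Same-numbered Pana libraries deviated from their group means with correlations of 0.168, -0.059 and 0.048. Drought library 1 correlated best with control library 1, while drought library 3 did so with control library 2 (0.265). Control library 3 correlated best with drought library 3. The deviations within a group are tied to each other, so these values cannot decide whether same-numbered libraries share more than a number. The 5575 gene models with no overlap became 2912 at a mean of at least 5 FPKM, with 17147 in place of 29041 tested. They numbered 6573 to 14408 with 1 library left out, where a lack of overlap is easier to reach. Of the gene models beyond the controls in drought libraries 1 and 2, 58.5% were so in library 3, against 58.4% after scaling and 68.2% at 4-fold. None of the 4 named calls changed sign in 27 settings, and the calls of Glyma04g05500, Glyma14g36860 and Glyma02g03230 were kept in 20, 17 and 20 of them. The cause of these shifts was not tested. The few reads behind low values in Pana control library 1 limit what can be said of gene models under 2 FPKM.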

Other observations

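The gene models with no overlap between Pana drought and control were spread over the genome. The identifiers of 28961 of the tested gene models carry a chromosome number, and over the 20 chromosomes the share higher under drought ran from 13.2% (chromosome 19) to 16.5% (chromosome 17). The share lower ran from 3.39% (chromosome 9) to 5.36% (chromosome 6). Without Pana drought library 1 the ranges were 17.7 to 21.4% and 3.81 to 6.35%, and without Pana drought library 3 they were 36.1 to 44.2% and 8.32 to 11.9%. Both choices rest on fewer libraries, which makes a lack of overlap easier to reach. Neighbours in the order of the identifiers were somewhat alike. After a gene model that was higher, the next one tested on the same chromosome was also higher in 17.9% of cases, against 15% overall. After one that was lower, the next was lower in 7.59%, against 4.24% overall. Without Pana drought library 1 these shares were 21.4% against 19.1% and 9.05% against 5.19%, and without Pana drought library 3 they were 43.1% against 39.9% and 12.8% against 9.72%. Neighbouring gene models in soybean include tandem copies that share reads, and their part in these shares was not tested.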
